A study of Mus musculus with 7 samples.

Results

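DNase-Seq signal at the promoters of 10 autophagy and mTOR genes was compared among 3 conditions of cultured mouse podocytes, the epithelial cells that wrap the capillaries of the glomerulus. The genes were Becn1, Atg5, Atg7, Map1lc3a, Map1lc3b, Sqstm1, Ulk1, Mtor, Tfeb and Prkaa1. They were chosen by name, and their peaks were those overlapping 500 nt either side of any protein-coding transcription start site (GENCODE vM21, GRCm38, the same build as mm10). This gave 42 start sites and 26, 25 and 27 promoter peaks in the NG, HG+NT and HG+miR-93 lists, which hold 1036304, 846027 and 900109 peaks. All 10 genes had a promoter peak in all 3 lists, as did 21811 of 21829 protein-coding genes, so the presence of a peak carried no information about the members.

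NG cells were kept in 5 mM glucose and the labels name no mimic for them. HG+NT cells were kept in 25 mM glucose with 50 nM of a mimic without a target, and HG+miR-93 cells in 25 mM glucose with 50 nM of a miR-93 mimic. All were held for 36 h after growth arrest in low serum. All 3 groups were made from an immortalized, differentiated podocyte culture, with 2 replicates per condition and 1 genomic DNA input, the replicates being biological ones by the methods. The deposited peak lists are 1 per condition with the replicates joined, and NG and HG+NT differ in glucose and in transfection, which cannot be told apart. No spread between replicates could be computed, and no test between conditions was made.

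Autophagy is the process by which a cell encloses part of its cytoplasm in a membrane and delivers it to the lysosome. The kinase ULK1 starts it, a lipid kinase complex containing Beclin 1 marks the growing membrane, and ubiquitin-like conjugation through ATG7 and ATG5 attaches LC3 to that membrane, where the receptor p62 brings in cargo. mTOR restrains the process when nutrients are plentiful, AMPK promotes it when energy is low, and TFEB switches on genes of autophagy and lysosomes. Podocytes divide rarely and are known for a high level of autophagy.

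Sequences of 6 member promoters are shown because the summits described later lie in or beside them. The RefSeq promoter table used (GRCm38.p6) was matched for 8 of the 10 members. The first 5 below run from 250 bases before the RefSeq start to 10 bases after it, 5′ to 3′ on the strand of the gene. The last, read from the genome, ends at the base before a Tfeb start site and holds the 3 Tfeb summits. Capitals mark an E-box (CACGTG) in Atg5 at chr10:44268089-44268348 on the plus strand, CCAAT boxes on either strand in Mtor at chr4:148448332-148448591 on the plus strand, and CG dinucleotides in Ulk1 at chr5:110810072-110810331 on the minus strand and in Prkaa1 at chr15:5143611-5143870 on the plus strand. In Sqstm1, at chr11:50210811-50211070 on the minus strand, capitals mark the 62 bases between its start and that of its neighbour Mgat4b. In Tfeb, at chr17:47737471-47737599 on the plus strand, they mark the bases between the outermost summits.
Atg5: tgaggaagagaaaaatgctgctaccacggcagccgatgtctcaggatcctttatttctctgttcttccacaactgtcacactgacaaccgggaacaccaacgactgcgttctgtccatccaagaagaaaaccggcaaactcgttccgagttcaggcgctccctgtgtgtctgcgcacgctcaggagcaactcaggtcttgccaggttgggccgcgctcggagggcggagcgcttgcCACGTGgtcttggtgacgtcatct
Mtor: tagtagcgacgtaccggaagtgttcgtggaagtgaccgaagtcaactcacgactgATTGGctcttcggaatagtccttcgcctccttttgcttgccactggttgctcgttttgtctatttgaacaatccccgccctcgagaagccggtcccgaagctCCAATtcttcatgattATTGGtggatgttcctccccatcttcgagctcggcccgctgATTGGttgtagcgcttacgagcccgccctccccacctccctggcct
Ulk1: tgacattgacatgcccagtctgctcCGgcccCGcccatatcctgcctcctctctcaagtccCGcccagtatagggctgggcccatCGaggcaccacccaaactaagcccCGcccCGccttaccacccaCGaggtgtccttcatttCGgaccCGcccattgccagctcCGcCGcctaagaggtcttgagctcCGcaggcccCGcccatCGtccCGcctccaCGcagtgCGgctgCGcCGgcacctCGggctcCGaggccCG
Prkaa1: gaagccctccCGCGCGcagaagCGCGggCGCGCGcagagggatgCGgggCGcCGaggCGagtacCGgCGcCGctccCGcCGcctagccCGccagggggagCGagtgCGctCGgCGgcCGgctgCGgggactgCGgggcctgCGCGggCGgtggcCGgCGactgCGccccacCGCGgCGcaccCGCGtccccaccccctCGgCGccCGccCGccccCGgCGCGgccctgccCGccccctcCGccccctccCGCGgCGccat
Sqstm1: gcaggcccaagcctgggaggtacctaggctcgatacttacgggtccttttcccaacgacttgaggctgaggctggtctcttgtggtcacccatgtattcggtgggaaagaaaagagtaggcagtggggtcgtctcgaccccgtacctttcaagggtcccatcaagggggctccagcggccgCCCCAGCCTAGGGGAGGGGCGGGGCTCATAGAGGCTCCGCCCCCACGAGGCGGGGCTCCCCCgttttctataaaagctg
Tfeb: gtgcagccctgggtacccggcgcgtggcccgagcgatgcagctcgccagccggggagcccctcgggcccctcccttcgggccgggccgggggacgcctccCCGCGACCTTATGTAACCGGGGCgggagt

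The Atg5 E-box began 14 bases before the RefSeq start, and the summits lay 4 nt (NG), 46 nt (HG+NT) and 31 nt (HG+miR-93) past its last base. Both strands were searched, and 7.15% of the 32851 RefSeq promoters of 300 bases (250 before the start, 50 after) held the same 6 letters. Mtor had 4 CCAAT boxes, with first bases at -195, -93, -77 and -36 from its start, and 37.4% of promoters had at least 1. The TATA box letters TATAAA began at the base before the RefSeq start of Sqstm1 (13.6% of promoters), and TGACNNNGC, the letters of the antioxidant response element, began at base 4 after that of Map1lc3b (12.4%). The Atg7 entry lies at a start far inside the gene and not at its 5′-most start. It held an E-box within the letters GTCACGTG (2.25%), the core of the element that TFEB is known to bind, and 4 CCAAT boxes. GCGCATGC, the core of the NRF1 motif, was in no member entry (2.71%). A match here is a description of letters and says nothing of a factor's presence.

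CpG content set Prkaa1 apart. Its 300 bases held 52 CG dinucleotides, more than 99.4% of promoters, with 82.0% G and C. Ulk1 held 26, Map1lc3b 34, Atg5 24, Mtor 21 and Sqstm1 20, against a median of 7 over all promoters. The Atg7 entry held 4, and the 3 Tfeb entries held 22, 20 and 6. The entries at or near the 5′-most starts, which 7 of the 10 members had, were thus rich in CpG, and the entries far inside Atg7 and Tfeb, with 4 and 6, held fewer than the median.

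The deposited fold of a peak is the number of fragments over its summit divided by the local mean of the input, each increased by 1, after scaling the sample to the depth of the input. From the fold and the p-value the fragments at each summit were recovered, here called the pileup when scaled. A list 2.24 (NG), 3.85 (HG+NT) or 5.15 (HG+miR-93) times as deep as the input gave a median of 6, 10 and 12 fragments per summit over all peaks. Depth differed by condition, so pileups are given with 95% exact Poisson intervals, which cover counting error only. A summit is the highest point of a peak, which counting noise raises more in a shallower list, and its part in the values was not tested. Over all genes the median ratio of pileups was 0.904 from NG to HG+NT, and that of HG+miR-93 over HG+NT was 0.952. Where 3 values follow each other they are in the order NG, HG+NT, HG+miR-93. Percentiles rank a gene's promoter peak of highest fold among those of the 21811 genes in the same list. Only 73, 94 and 1 peaks of the 3 lists had −log10 q values of 2 or more, and none of them was at a member promoter, where it was 0 throughout except for 0.19 at Tfeb in NG. The members' peaks were thus weak by the peak caller's own measure.

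By fold, 9, 8 and 8 of the 10 members stood above the median promoter. Their median percentile was 82.8, 78.9 and 79.1, against 50.9, 49.9 and 49.8 over all genes. By pileup, it was 74.2, 74.0 and 73.3. For these peaks, the rank of the members as a set was therefore much the same in the 3 lists. However, in HG+miR-93 only 6 of the 10 summits lay within 500 nt of a start. With only peaks whose summit lay inside the window, 8 members were measured, and 7, 6 and 6 stood above the median. In HG+miR-93, Sqstm1 then stood at percentile 50.8 in place of 96.0 and Atg7 at 62.3 in place of 83.2. The other measured members moved by at most 10 points in that list. Single genes moved far by fold, with Mtor having dropped by 81.2 percentile points from NG to HG+NT. By fold, the set was less level for the peak of most fragments at each gene's 5′-most start region. There the members' median fold was 2.37, 2.15 and 1.74, against 1.80, 1.66 and 1.59 over all genes, and 8, 8 and 7 stood above the median promoter. Their median pileup there was 8.93, 8.18 and 7.29, against 5.36, 4.93 and 4.86 over all genes.

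**Figure D1:**
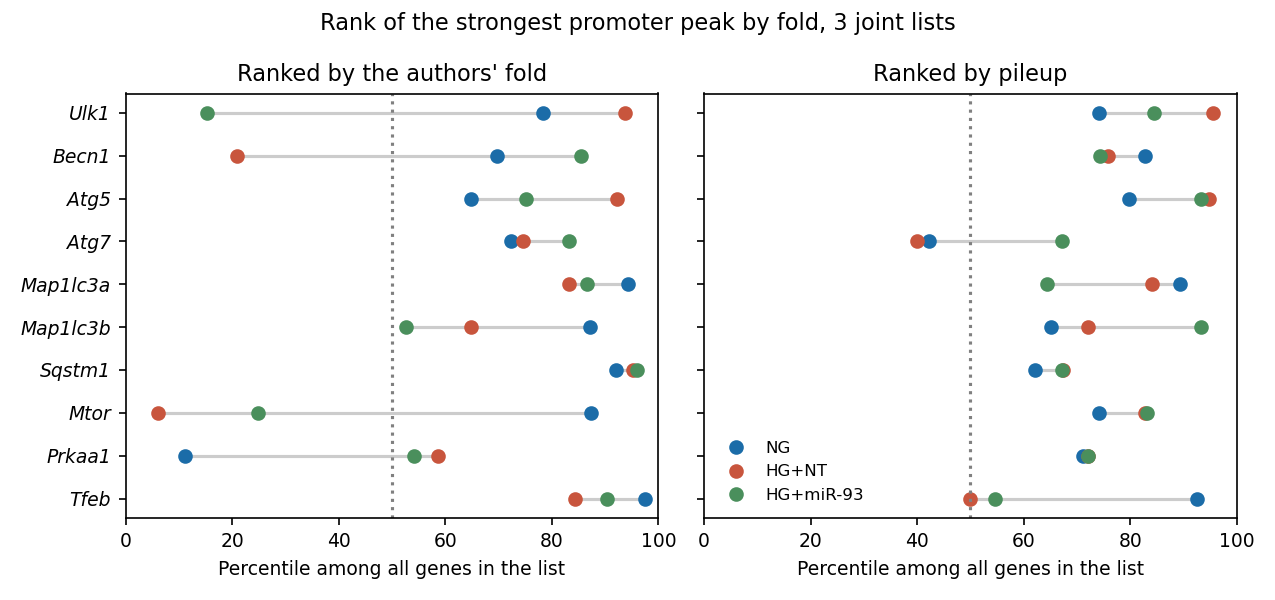
Percentile of each member's promoter peak of highest fold among all genes, ranked by the authors' fold (left) and by pileup (right), with 1 point per joint list, grey lines joining the 3 lists, and a dotted line at 50. Ulk1, Becn1, Mtor and Prkaa1 spread widely by fold (Mtor 87.3, 6.1 and 24.9) and much less by pileup, while Tfeb spreads more by pileup.

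Ulk1 encodes the kinase that starts autophagosome formation (chr5:110784488-110810097, minus strand). Its promoter peak had 19, 49 and 38 fragments, giving pileups of 8.49 (interval 5.11 to 13.3), 12.7 (9.41 to 16.8) and 7.38 (5.23 to 10.1). HG+NT was highest, and all 3 intervals overlapped. The fold was 2.37, 2.74 and 1.20, and its percentile 78.3, 93.7 and 15.3. The log2 ratio of folds between HG+miR-93 and HG+NT was -1.20, of which the pileup gave -0.71. The remainder came from the input, whose local mean was 4 at the HG+NT summit and 6 at the HG+miR-93 summit, 121 nt further upstream. Both summits lie in the Ulk1 sequence shown above, at 110810118 and 110810239. The summit of the NG peak was in the untranslated exon, 80 nt past a start.

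Becn1 encodes Beclin 1, a subunit of the lipid kinase complex (chr11:101285952-101302286, minus strand). Its pileup was 9.83 (6.16 to 14.9), 7.01 (4.62 to 10.2) and 6.22 (4.25 to 8.78), from 22, 27 and 32 fragments. These intervals overlapped throughout. The fold instead read 2.17, 1.34 and 2.26, at percentiles 69.7, 20.9 and 85.4. From NG to HG+NT the log2 ratio of folds was -0.70, with -0.43 from the pileup. Against HG+NT, the HG+miR-93 fold was higher by 0.76 while the pileup part was -0.15, so the higher fold came from the input's local mean, which was 5 at the HG+NT summit and 2.20 at the HG+miR-93 summit. The former lay on a start site and the latter 177 nt downstream, and the direction from HG+NT to HG+miR-93 depended on whether fold or pileup was read.

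Atg5 and Atg7 belong to the conjugation machinery. ATG5 is joined to ATG12 and helps attach LC3 to lipid, and ATG7 is the activating enzyme of both conjugation reactions. Atg5 (chr10:44268358-44364291, plus strand) had pileups of 9.38 (5.81 to 14.3), 12.2 (8.97 to 16.2) and 9.33 (6.88 to 12.4), from 21, 47 and 48 fragments. The input's local mean was 4 at each summit, and the 3 summits lay within 42 nt, so the comparison at Atg5 was free of a change in the input. Its fold was 2.08, 2.64 and 2.07. HG+NT was the highest and the outer conditions were nearly equal, but the intervals overlapped.

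Atg7 (chr6:114643097-114860614, plus strand) had 10 start sites in 4 separate start regions, and its peak of highest fold overlapped internal start regions, with the summit in an intron. There the fold was 2.25, 2.12 and 2.21, with pileups of 4.47, 4.15 and 5.64, and the HG+miR-93 peak overlapped another internal start region than those of NG and HG+NT. Its summit lay 2101 nt from the nearest start, so its 29 fragments were not counted at a start. At the 5′-most start region the pileup was 6.25 (3.42 to 10.5), 6.49 (4.20 to 9.58) and 4.28 (2.68 to 6.47). The 5′-most promoter was lowest in HG+miR-93, with a fold of 1.06, and the intervals overlapped. With the fold ratio of 0.563 from HG+NT to HG+miR-93 there, Atg7 passed the 1.5 times limit only at that start region.

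Map1lc3a and Map1lc3b encode LC3 proteins, the ubiquitin-like proteins that coat the autophagosome. Map1lc3a (chr2:155276297-155278073, plus strand) had pileups of 11.2 (7.23 to 16.5), 8.31 (5.68 to 11.7) and 5.44 (3.62 to 7.86) from 25, 32 and 28 fragments. Its fold was 3.04, 2.33 and 2.30, at percentiles 94.3, 83.3 and 86.6. NG was highest by both measures. From HG+NT to HG+miR-93 the fold was level (ratio 0.988) while the pileup ratio was 0.655, because the input's local mean was 3 at the HG+NT summit and 1.80 at the HG+miR-93 summit. The NG and HG+miR-93 intervals overlapped only between 7.23 and 7.86. However, the HG+miR-93 summit lay 573 nt downstream of the start, in an intron and outside the promoter window. Its 28 fragments were thus not counted at the promoter itself. In NG and HG+NT the summits lay 309 and 216 nt downstream of the start, so only those values describe the Map1lc3a promoter.

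Map1lc3b (chr8:121590361-121598760, plus strand) had folds of 2.63, 1.97 and 1.72, at percentiles 87.2, 64.9 and 52.7. The order by pileup was different, with 7.15 (4.08 to 11.6), 6.49 (4.20 to 9.58) and 9.33 (6.88 to 12.4). In HG+miR-93 a single peak of 12312 bp covered the promoter and its summit lay 4810 nt upstream of the nearest start, so that its 48 fragments were not counted at the promoter itself. In NG and HG+NT the peaks were 3209 and 3130 bp wide and the summits lay 10 and 125 nt upstream of a start. Only the NG and HG+NT values therefore describe the Map1lc3b promoter. Over the 1035 genes of chromosome 8 the median percentile by fold was 11.8 points higher in HG+NT than in NG, while that of Map1lc3b was lower. Divided by the chromosome's median promoter fold, its percentiles were 86.3, 42.5 and 31.9.

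Sqstm1 encodes p62, a receptor that binds ubiquitinated cargo and LC3 (chr11:50199366-50210827, minus strand). Its start lies 63 nt from that of Mgat4b on the opposite strand, and signal between the starts belongs to both genes. At the 5′-most start region the pileup was 15.6 (10.9 to 21.7), 9.87 (6.98 to 13.5) and 7.58 (5.39 to 10.4), from 35, 38 and 39 fragments. NG was the highest pileup of the members at this set of starts, and its interval did not overlap that of HG+miR-93. Over all genes, 1.34% were lower with intervals apart in this comparison, which was added after the values were seen. The local mean of the input was 6, 3.60 and 4.20 at these summits, so the fold was 2.38, 2.36 and 1.65. The HG+miR-93 summit lay within the 62 bases in capitals above, 28 nt from the Sqstm1 start, and the HG+NT summit 178 nt upstream of it, beyond the Mgat4b start.

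The Sqstm1 peak of highest fold was a different one, at an internal start, and gave folds of 2.89, 2.86 and 2.72. In NG it spanned 1471 bp with its summit in an intron. In HG+NT and HG+miR-93 it spanned 16585 and 13978 bp and had its summit more than 5 kb beyond that start, downstream of the gene. The near equality of these 3 folds thus compared different positions.

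Mtor encodes the kinase of the complexes mTORC1 and mTORC2 (chr4:148448611-148557683, plus strand). Its pileups were 8.49 (5.11 to 13.3), 8.05 (5.47 to 11.4) and 7.19 (5.06 to 9.91) from 19, 31 and 37 fragments, with overlapping intervals. The fold was 2.64, 1.01 and 1.37. From NG to HG+NT the log2 ratio of folds was -1.39, of which the pileup gave -0.07 and the local mean of the input 1.32 in the denominator. The input had a local mean of 2.60 at the NG summit, 303 nt downstream of a start, and of 8 at the HG+NT summit, 89 nt upstream, among the CCAAT boxes shown above. Mtor thus had the widest range of fold percentile (87.3, 6.1 and 24.9) with a pileup that differed by less than its counting error.

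Prkaa1 encodes a catalytic subunit of AMPK (chr15:5143861-5181899, plus strand). Its pileup was 8.04 (4.76 to 12.7), 6.49 (4.20 to 9.58) and 6.02 (4.09 to 8.55), from 18, 25 and 31 fragments. The fold was 1.29, 1.87 and 1.76, with the input's local mean at 6, 3 and 3. NG was lowest by fold and highest by pileup. The percentile by pileup stayed within 1 point over the lists, and that by fold was 11.1, 58.6 and 54.2. Over the 780 genes of chromosome 15 the median percentile by fold was 15.1 points higher in HG+NT than in NG, and with each fold divided by the median promoter fold of its chromosome Prkaa1 stood at percentiles 9.23, 32.9 and 27.3, below the median promoter in all 3 lists. Its log2 ratio from NG to HG+NT was then 0.38 in place of 0.54.

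Tfeb encodes the transcription factor of the autophagy and lysosome genes (chr17:47737030-47792419, plus strand) and had 11 start sites in 7 start regions. In NG its peak of highest fold was at the 5′-most region, with 27 fragments, a pileup of 12.1 (7.95 to 17.5), a fold of 3.44 and the highest percentile of any member (97.4). In HG+NT and HG+miR-93 the peak of highest fold was at the next region, with folds of 2.34 and 2.41 and pileups of 4.67 (2.77 to 7.39) and 4.86 (3.14 to 7.17). Compared region by region the difference was smaller. At the 5′-most region the pileup was 12.1, 8.31 (5.68 to 11.7) and 7.97 (5.72 to 10.8), with overlapping intervals and summits within 22 nt. At the next region it was 5.36 (2.77 to 9.36), 4.67 and 4.86. Of the other 5 regions, none had a pileup above 7.15 in any list.

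**Figure D2:**
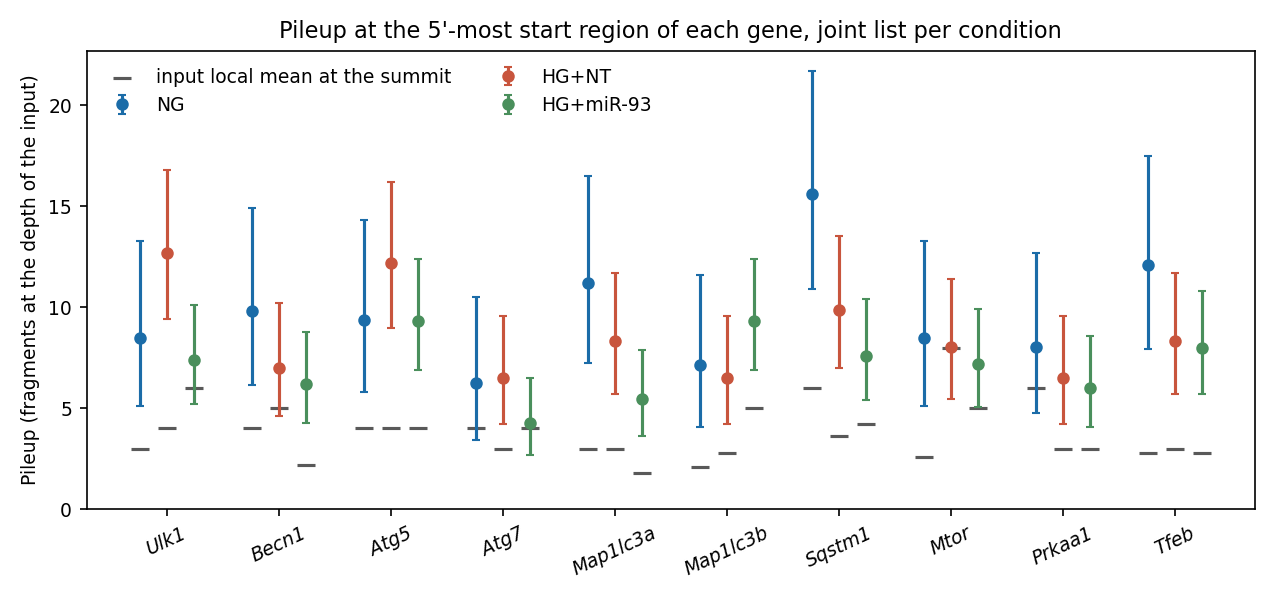
Pileup at the 5′-most start region of each member in the 3 joint lists (points, with 95% exact Poisson intervals as bars, scaled to fragments at input depth) and the local mean of the input at the same summit (grey dashes). Intervals overlap within every member except between NG (15.6) and HG+miR-93 (7.58) at Sqstm1, and the dashes shift most at Mtor (2.60, 8 and 5).

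The comparison of NG with HG+NT asked how the accessibility of these promoters differed with high glucose and transfection together, which cannot be told apart. By fold, 0 of the 10 members were at least 1.5 times higher in HG+NT, against 7.33% of all genes, and 2, Becn1 and Mtor, were at least 1.5 times lower, against 16.5%. By pileup, intervals were apart for 0 higher members (0.720% of all genes) and 1 lower member, Tfeb (2.19%). This Tfeb value compared different start regions. At the 5′-most start regions no interval was apart. With 10 genes, these counts were close to the shares over all genes.

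The comparison of HG+NT with HG+miR-93 asked what the miR-93 mimic changed in high glucose. By fold, 1 member, Becn1, was at least 1.5 times higher (6.23% of all genes) and 1, Ulk1, at least 1.5 times lower (9.75%). By pileup, intervals were apart for 0 members in either direction, against 0.426% higher and 1.90% lower. Both comparisons share the HG+NT list, so a high or low value there gives opposite differences in them. HG+NT had the highest or the lowest percentile by fold for 7 members, against 62.0% of all genes. For the members the share was near that background.

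**Figure D3:**
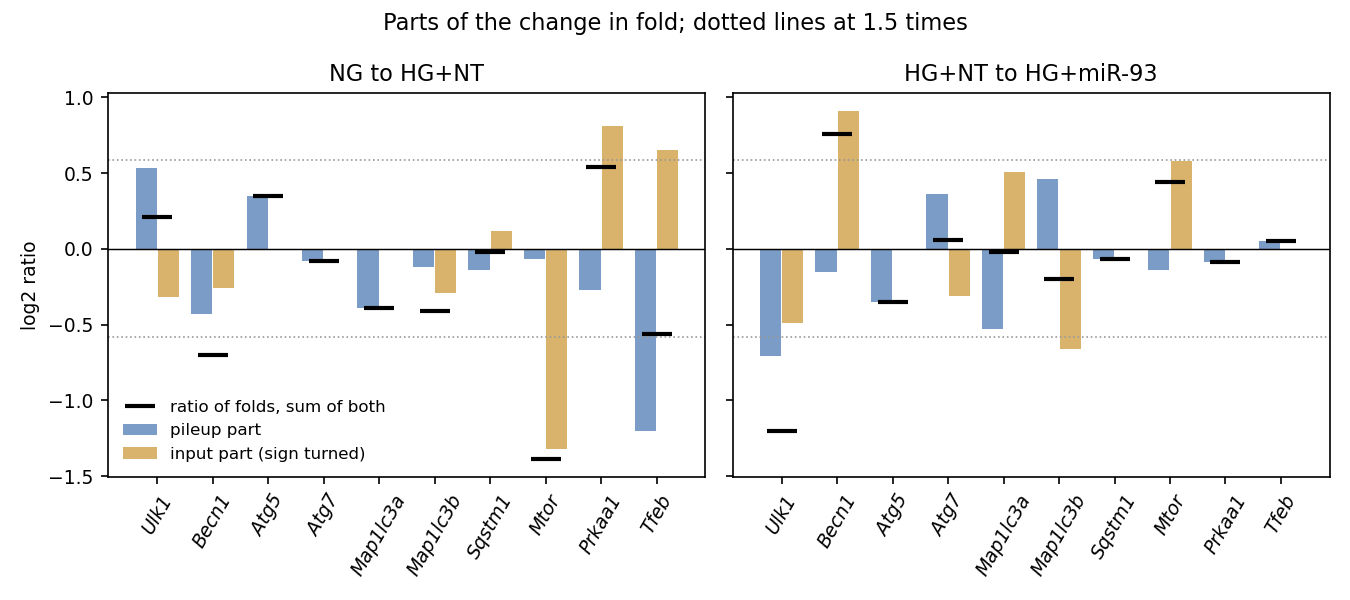
Log2 ratio of folds (black dashes) of each member, for HG+NT against NG (left) and HG+miR-93 against HG+NT (right), split into the part from the pileup (blue) and the part from the input's local mean with its sign turned (yellow), with dotted lines at 1.5 times. The Mtor ratio of -1.39 on the left and the Becn1 ratio of 0.76 on the right come from the yellow part, while the Ulk1 ratio of -1.20 on the right has both parts in the same direction.

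In absolute size, the input part of the log2 ratio was larger than the pileup part in 3 of 10 members from NG to HG+NT (Mtor, Prkaa1 and Map1lc3b), against 37.0% of all genes. It was larger in 3 of 10 from HG+NT to HG+miR-93 (Becn1, Mtor and Map1lc3b), against 43.9%. Between NG and HG+miR-93 it was larger in 6 of 10, against 35.6%. The same input was used for each list, so its local mean differed only because the summits lay at different positions.

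Summit positions were a property that the choice of genes did not use. For the peaks of highest fold, 9, 9 and 6 of the 10 member summits lay within 500 nt of a start site, against 60.9%, 57.6% and 56.9% of all genes. Within 200 nt lay 6, 7 and 5, against 38.8%, 39.3% and 37.7%. In HG+miR-93 the count within 500 nt was thus near the share over all genes. The same 10 genes were read in each list. For the peak of most fragments at the 5′-most start region, a rule chosen after seeing the data, 10, 10 and 8 lay within 500 nt. Within 200 nt the counts were 8, 9 and 8. The shares of all genes under that rule were 62.6%, 60.5% and 60.7% within 500 nt and 40.6%, 42.1% and 41.5% within 200 nt. Under the same rule the summits of the 3 lists lay a median of 312 nt apart, against 621 nt over all genes, and were within 400 nt of each other for 8 members, against 40.4% of genes. Tfeb (22 nt) and Atg5 (42 nt) had the most constant summits, followed by Sqstm1 (200 nt), Becn1 (222 nt) and Ulk1 (266 nt). Map1lc3b, with 5151 nt, was the least constant. For the promoters with fixed summits the fold and the pileup gave the same order of conditions at Atg5, and NG was highest by both at Tfeb.

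**Figure D4:**
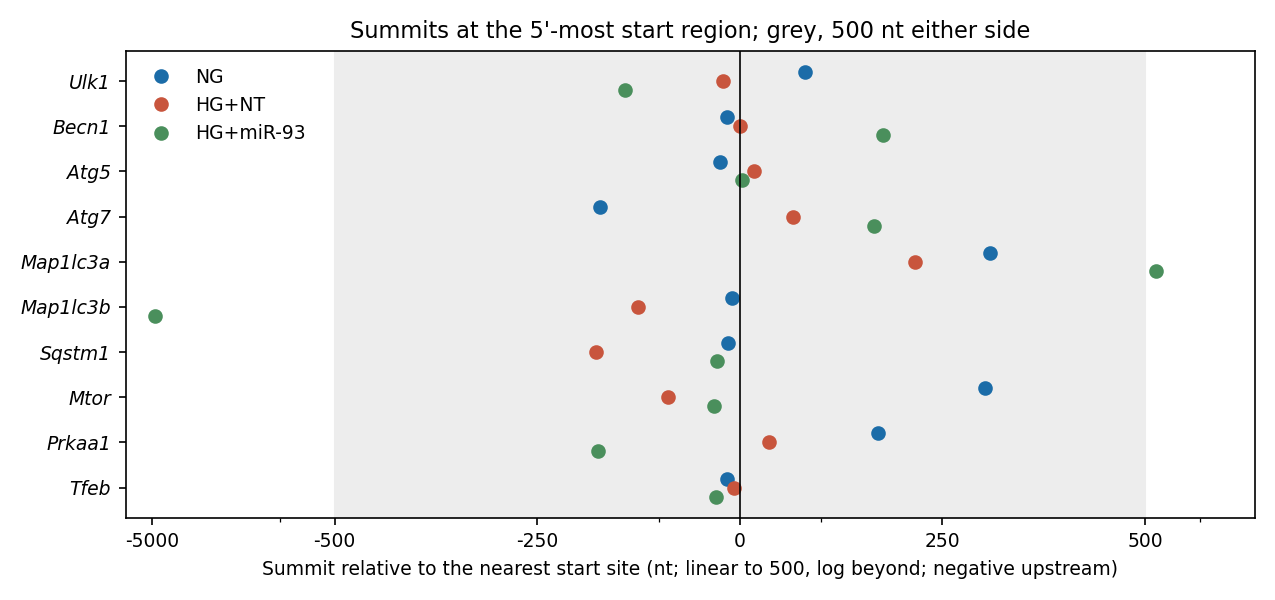
Position of the summit relative to the nearest start site for each member at its 5′-most start region, in nt, linear to 500 and logarithmic beyond, with 1 point per joint list and grey for 500 nt either side. Atg5 and Tfeb summits cluster at the start in all 3 lists, and the Map1lc3b summit of HG+miR-93 lies 4810 nt upstream.

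The pathway holds further genes, which were listed by role and not by their values. Of 84 other genes, 61, 40 and 47 stood above the median promoter by fold, with a median percentile of 68.7, 49.5 and 53.7. By pileup the median percentile was 77.0, 70.9 and 72.1. From NG to HG+NT, the fold was at least 1.5 times higher in 3 of the 84 and lower in 20, against 7.33% and 16.5% of all genes. Between HG+NT and HG+miR-93 the mimic list was higher in 6 and lower in 8, against 6.23% and 9.75%. Compared with the 10 members, whose median percentile stayed near 80 by fold, the other pathway genes ranked lower in HG+NT and HG+miR-93. This difference was not tested, and both sets were read here at the peak of highest fold. At the 5′-most start region the members' median fold in HG+miR-93 was 1.74, against 1.59 over all genes. Their high standing by fold in that list thus depended on the choice of peak. By pileup the members' median there was 7.29, against 4.86 over all genes.

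Among the 11 groups, those of the lysosome, of LC3 and GABARAP and of the conjugation enzymes had the lowest median change by fold from NG to HG+NT, and other groups also had few higher genes (1 of 4 MiT/TFE factors, 2 of 8 genes of the class III PI3-kinase complex). Of 13 lysosomal genes, 3 had a higher percentile by fold in HG+NT than in NG, against 10951 of 21811 over all genes. At least 1.5 times lower were 7 (16.5% of all genes). With the miR-93 mimic, 10 ranked higher than without it, against 10943 of 21811. The median percentile of the 13 genes was 69.7, 39.8 and 55.5 by fold and 65.2, 64.5 and 69.7 by pileup. Of the 5 genes for LC3 and GABARAP proteins, Map1lc3a and Map1lc3b included, 0 were higher by percentile of the fold in HG+NT and 4 were higher in HG+miR-93, with medians of 82.2, 49.6 and 71.1. The 11 conjugation enzymes, Atg5 and Atg7 included, had medians of 72.3, 49.9 and 31.2 by fold but 79.8, 75.9 and 72.1 by pileup. In each of these groups the spread of medians over the lists was smaller by pileup. Single lysosomal genes still moved by pileup. Of the 13, 4 had a higher pileup percentile in HG+NT than in NG, against 10846 of 21811 over all genes. From HG+NT to HG+miR-93, 10 were higher, against 11325 of 21811. Their median changes were -7.26 and 6.58 points, against -0.131 and 0.225 over all genes. The groups were picked by their change to HG+NT, a list that both comparisons share. A low value there gives opposite differences in them, so the counts of genes higher in HG+miR-93 cannot be read as an effect of the mimic.

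**Figure D5:**
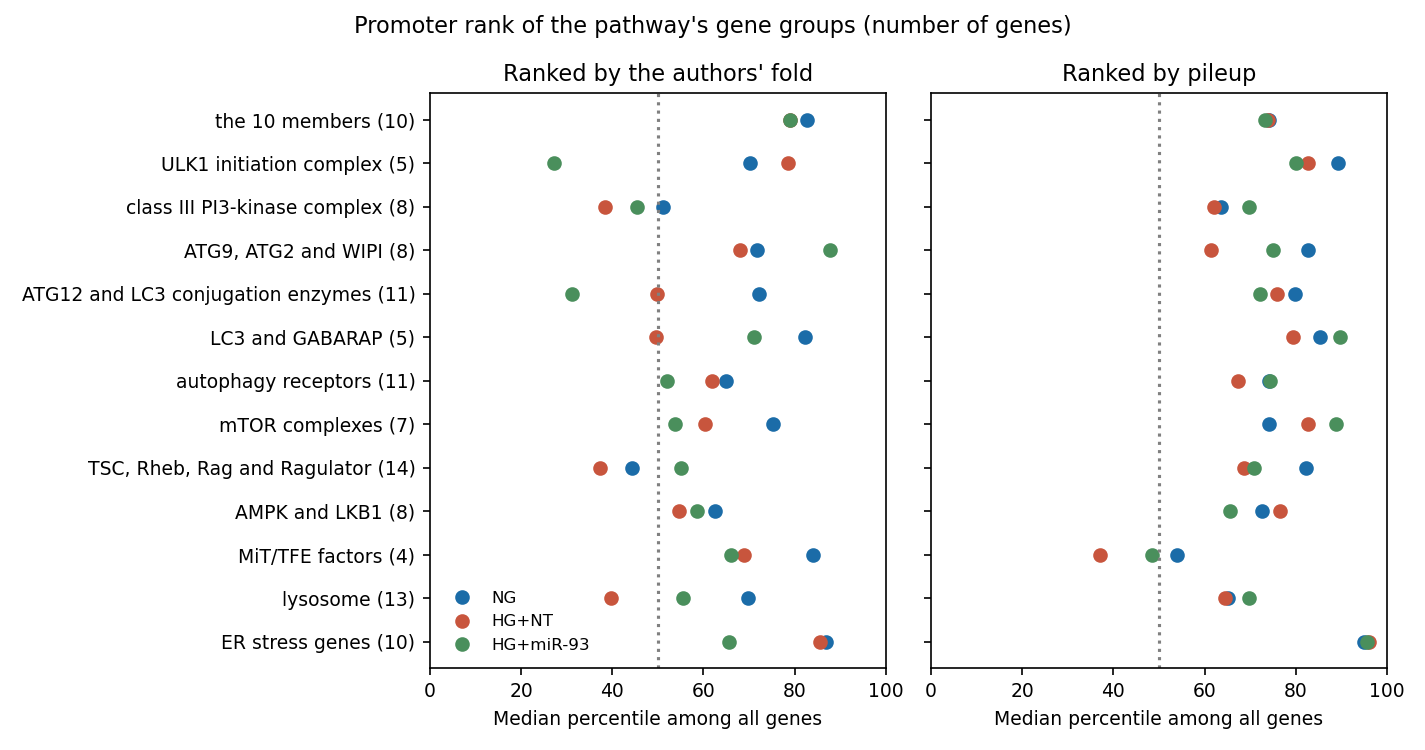
Median percentile of the promoter peaks in each group of pathway genes, with the members and the endoplasmic reticulum stress genes for comparison, ranked by the authors' fold (left) and by pileup (right), with 1 point per joint list and the number of genes in brackets. The median of the lysosome group moves from 69.7 to 39.8 and 55.5 by fold and lies between 64.5 and 69.7 by pileup, though its single genes also moved by pileup.

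Of the 84 other pathway genes, 1 was higher and 3 were lower from NG to HG+NT with pileup intervals apart, against 0.720% and 2.19% of all genes. The higher one was Wipi1, whose protein binds the lipid made by the Beclin 1 complex. Its pileup was 11.2 (7.23 to 16.5), 21.6 (17.2 to 26.7) and 15.0 (11.8 to 18.7), from 25, 83 and 77 fragments. HG+NT was highest, with its summit and that of HG+miR-93 1 nt apart and the NG summit about 250 nt further upstream. The genes lower in HG+NT were 3, Atg2b (a lipid transfer protein), Tsc1 (a brake on mTORC1) and Ctsl (a lysosomal protease), with pileups of 9.83, 10.7 and 12.1 in NG and 3.38, 2.86 and 3.38 in HG+NT. In all 3 the HG+NT summit lay at another start site of the gene.

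Between HG+NT and HG+miR-93, 1 was higher and 2 were lower with intervals apart, against 0.426% and 1.90%. Nbr1, a cargo receptor, had 3.64 and 10.9, while Rb1cc1, a partner of ULK1, had 8.05 and 2.33 and Stk11, the kinase that activates AMPK, had 11.9 and 5.25. In these 3 the compared peaks lay at different start regions of the gene, and the Nbr1 summit of HG+NT was 4358 nt and the Rb1cc1 summit of HG+miR-93 948 nt from the nearest start. The highest mean percentile by fold belonged to Prkag2, a regulatory subunit of AMPK, with folds of 4.64, 3.58 and 2.92, and the lowest to Rragb, a Rag GTPase, with 1.15, 0.773 and 1.02.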

How the data were processed

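DNase-Seq reads were trimmed with TrimGalore! by the authors, mapped to mm10 with Bowtie, and filtered for duplicates. The labels' processing notes also name CASAVA 1.8.2 and MACS2. The authors deposited 1 joint MACS2 peak list per condition, called against 1 genomic DNA input. MACS2 parameters are not given in the sources used here, and peaks with p up to 0.9 are listed. Deposited columns used were the fold (a ratio), the −log10 of the p-value and the −log10 of the q-value. The deposited score column was not used. No other per-sample columns were used.

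For each peak the fragment number and the local mean of the input were solved, taking the mean as the input background of 1.43 or a multiple of 0.02. A solution existed for 100% of peaks and was unique in at least 99.8%. Otherwise the fewest fragments were used. The solver was tested on simulated peaks. Start regions are windows of 500 nt either side that do not overlap. Changes were described by the fold (at least 1.5 times) and by pileup intervals, and the alternatives are listed in the closing section. The members and lists were chosen with earlier results of these data known. All members are named, as are other pathway genes whose intervals were apart between NG and HG+NT or between HG+NT and HG+miR-93, and those with the highest and lowest mean percentile. Single replicates and RNA were not analysed here. Python 3.11.15, pandas 2.3.3 and scipy 1.17.1 were used.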

Additional observations from a re-analysis of the deposited data

How the results depend on the processing

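No paired analysis was possible because each list joins its replicates and holds no value per replicate, and for the same reason no replicate could be left out. Of 420 values of single members under the alternatives, 324 moved by at most 10 percentile points or, for ratios of folds, by less than 1.5 times with no change of sign, 95 moved further or turned sign without being called, and 1 called value turned direction: ranked by pileup, Becn1 changed by -0.17 on the log2 scale from HG+NT to HG+miR-93. Of 122 counts over the members, 98 stayed within 1.5 times, a limit that still allowed moves of several members. Those above the median promoter in NG were 9 in the main setting and 6 with the sum of folds of all promoter peaks. HG+NT was highest or lowest for 7 in the main setting, for 5 ranked by pileup and for 9 at the 5′-most start region. Ranked by pileup, 1 member was lower from NG to HG+NT, and 0 were higher and 2 lower in HG+miR-93 against HG+NT. With the lower of the alternative limits on the fold ratio, 2 were higher and 5 lower from NG to HG+NT, and 2 higher and 2 lower from HG+NT to HG+miR-93. With the higher limit, 1 was lower from NG to HG+NT and 0 were higher from HG+NT to HG+miR-93. With the sum of folds of all promoter peaks, 1 was higher from NG to HG+NT, 2 were lower from HG+NT to HG+miR-93, and 5 stood above the median in HG+miR-93. With the peak of most fragments at the 5′-most start region, chosen after seeing the data, 2 were lower by fold from HG+NT to HG+miR-93. There, and with basic transcripts alone, 0 had lower pileup with intervals apart from NG to HG+NT. The 50000 strongest peaks of each list held 6 members, of which 4, 2 and 3 stood above the median in the 3 lists, 3 were higher from NG to HG+NT and 2 lower from HG+NT to HG+miR-93, 0 were lower by the limit from NG to HG+NT, 0 were higher and 0 lower by it from HG+NT to HG+miR-93, and HG+NT was highest or lowest in 3. No member had a peak with −log10 q of at least 2 in all lists, so that alternative gave no value. Shares over all genes are not given under the alternatives. The counts above thus show how the calls depend on the setting, not how the members compare with other genes. For other alternatives the cause of a move was not tested. Depth limits a single promoter to intervals that span about 2 to 4 times between their bounds.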

Other observations

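Genes of the endoplasmic reticulum stress response, the set most alike in function, ranked higher than the members by pileup. Their 10 genes had median percentiles of 94.9, 96.2 and 95.6 by pileup in the lists of NG, HG+NT and then HG+miR-93, against 74.2, 74.0 and 73.3 for the members. By fold they had 87.0, 85.5 and 65.6.

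Marker genes were read as a check of the labelled cell type. Of 10 podocyte markers listed, the 9 measured had median percentiles of 50.9, 73.4 and 69.3 by fold and 55.8, 54.4 and 61.3 by pileup. Markers of other glomerular and tubular cells, also 9, had 46.4, 58.6 and 64.1 by fold and 42.2, 40.0 and 50.8 by pileup. The podocyte markers had the higher median in all 3 lists by both measures. This difference was not tested, and it was small in gene counts. By fold, 5, 7 and 6 podocyte markers stood above the median promoter, against 4, 5 and 5 of the others. Over all genes the medians were 50.9, 49.9 and 49.8 by fold and 47.8, 50.0 and 50.8 by pileup. In NG the podocyte markers thus ranked by fold as all genes did.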
